A study of Mus musculus with 6 samples.

Results

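Genes that mark lung fibroblasts and pericytes were followed in whole lung tissue of WT mice and TSPO KO mice by RNA-seq, a readout of messenger RNA by the sequencing of its fragments. The 10 genes, taken by name, were Pdgfra, Pdgfrb, Tcf21, Dcn, Lum, Inmt, Fn1, Postn, Tnc and Npnt, out of 23473 genes with a RefSeq entry in the deposited table. Each gene stood by its RefSeq entry with the highest total count, and all 10 passed the filter on low counts, which left 14802 genes for the test. The mice of both groups were labelled C57BL/6, aged 6 to 8 weeks and kept under SPF conditions, and the study's methods give C57BL/6J for the lines they were bred from. WT mice were wild type for TSPO, and KO mice carried a whole-body deletion of exons 2 and 3 of the gene, which protamine-Cre, active in the male germ line, had cut out between loxP sites. RNA of 3 littermates was combined in each library, with 3 WT and 3 KO libraries, so libraries vary as pools do, not as single mice.

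Fibroblasts make and remodel the extracellular matrix of the lung, and pericytes wrap its capillaries. PDGF ligands from epithelium, endothelium and platelets act on them through the receptor tyrosine kinases PDGFRα, which marks fibroblasts of the alveolar wall, and PDGFRβ, which is strong in pericytes. TCF21 is a basic helix-loop-helix factor of lung mesenchyme. Decorin and lumican are small leucine-rich proteoglycans that bind collagen fibrils. Fibronectin, periostin, tenascin-C and nephronectin are matrix glycoproteins to which cells attach through integrins, and INMT is a methyltransferase of small amines that is abundant in lung. In tissue RNA, fewer cells of a type and less RNA per cell cannot be told apart, and several of these genes, Fn1 and Npnt among them, are also transcribed in other lung cells.

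None of the 10 genes passed the test of KO against WT lungs, and the WT and KO libraries overlapped for every one of them. Log2 fold changes of KO against WT ran from −0.03 for Fn1 to 0.19 for Inmt, with 8 above 0 and 2 below and a median of 0.06, against a median of 0.00 over all genes tested. The adjusted p was 0.9999 for each (quasi-likelihood test of edgeR, Benjamini-Hochberg adjustment). At an unadjusted p under 0.05 there were 0 of 10, and limma-voom, DESeq2 and the exact test of edgeR also called 0 of 10. Over all genes tested 0.00676% passed, which was Tspo alone. An unadjusted p under 0.05 was found for 1.88%, and 5.46% had libraries that did not overlap. The genes differed from each other in level and in the spread between libraries, both described further down. The spread was wide for Tnc and narrow for Tcf21 and Postn.

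The libraries held 9617086 to 11942318 counts over the chosen entries, and intervals given here cover 95%. Tspo checked the labels: its level was 153 to 156 CPM in the WT libraries and 19.7 to 21.7 CPM in the KO libraries, which edgeR put at −2.87 ± 0.10 on the log2 scale (estimate with standard error, quasi-likelihood adjusted p = 1.42e-07). CPM is the usual unit of counts relative to library size, here with TMM scaling. Rn45s, a ribosomal RNA precursor, took 11.4% of the counts in WT library 3 and 0.224% to 0.427% elsewhere. WT library 2 stood apart in markers of adjoining tissue. The summed level of 6 squamous epithelium markers was 1340 CPM there against 6.38 to 12.6 CPM elsewhere, that of 9 skeletal muscle markers 261 CPM against 20.3 to 24.7 CPM, and that of 7 fat markers 286 CPM against 75.5 to 144 CPM.

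Levels of different genes can be compared only per length, so CPM were divided by the length of the transcript in kilobases. Inmt was highest by far, at 1829 ± 240.2 CPM per kilobase (SD over 6 libraries), and ranked 7 from the top among the 14540 tested genes with a known length. Npnt followed at 198 ± 41.0 CPM per kilobase and Postn at 122 ± 12.3, and for these 3 genes the lowest library of each lay above the highest library of the next. Between Npnt and Postn the gap was narrow, at 146 against 143 CPM per kilobase. It rests on the chosen Npnt entry of 3601 bases, and the other Npnt entry, of 4619 bases, would give lower values. Tcf21 at 77.6 ± 4.50, Dcn at 75.2 ± 11.7, Pdgfra at 69.8 ± 8.49, Fn1 at 56.6 ± 11.1 and Pdgfrb at 37.2 ± 8.28 CPM per kilobase came next. In that run each gene overlapped its neighbour in the order, so neighbouring ranks were not separated by their ranges. Genes further apart could be: the highest Pdgfrb library, at 50.8 CPM per kilobase, lay below the lowest library of Pdgfra, at 53.7, of Dcn, at 59.5, and of Tcf21, at 70.4. Library by library, Pdgfra was above Fn1 and Fn1 above Pdgfrb in 6 of 6. Lum at 5.22 ± 1.17 and Tnc at 4.77 ± 1.81 CPM per kilobase were far below the others and overlapped each other.

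**Figure D1:**
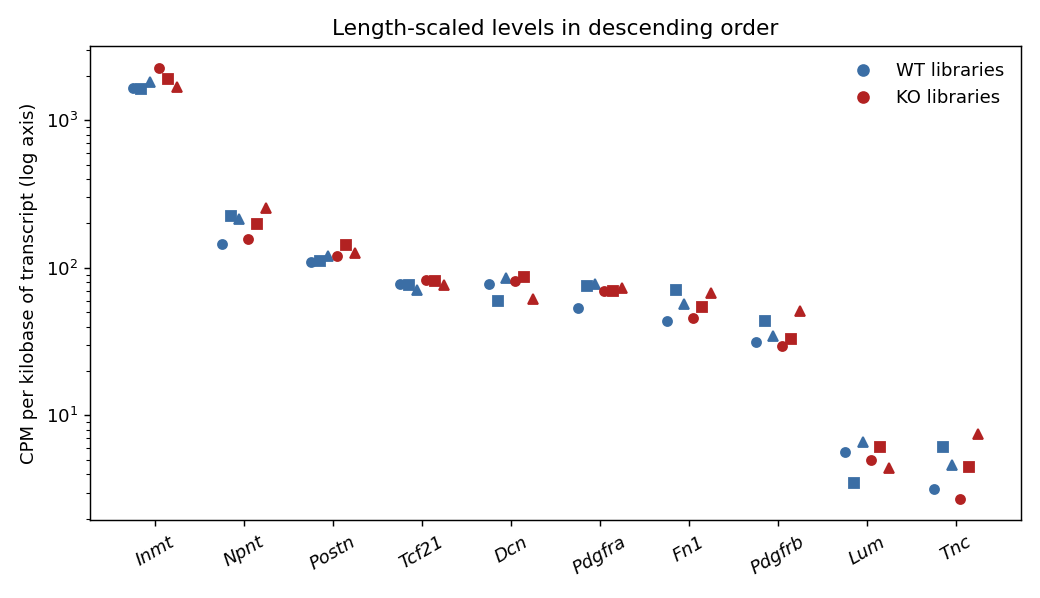
Length-scaled levels of the 10 genes, in CPM per kilobase of transcript on a log axis, with 1 point per library (circle, square and triangle for libraries 1, 2 and 3; blue WT, red KO). Inmt stood at 1636 to 2276 and Tnc at 2.72 to 7.54, and blue and red points mixed for every gene.

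The promoters of 4 genes are shown as the sequence context of this range: Inmt, Npnt and Postn as the genes with the highest levels per length, and Tnc as the lowest and the most variable. Each window runs from 250 bases before to 50 bases after the start site of a RefSeq transcript in GRCm38.p6, which is the assembly of mm10. Capitals mark matches on either strand to TATAAA, the core of a TATA box, to CCAAT, to GGGCGG, known as a GC box, to TGANTCA, which AP-1 factors bind, to GGAATG, which TEAD factors bind, or to CAGCTG, one form of E-box. No motif overlaps another in the windows shown.
Inmt (chr6:55174941-55175240, minus strand): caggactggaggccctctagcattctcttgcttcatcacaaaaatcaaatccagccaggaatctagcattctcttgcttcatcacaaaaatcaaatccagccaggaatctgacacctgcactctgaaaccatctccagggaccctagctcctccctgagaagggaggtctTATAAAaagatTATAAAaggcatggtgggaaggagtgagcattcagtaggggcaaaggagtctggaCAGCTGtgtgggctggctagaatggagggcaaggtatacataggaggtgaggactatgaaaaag
Npnt (chr3:132950242-132950541, minus strand): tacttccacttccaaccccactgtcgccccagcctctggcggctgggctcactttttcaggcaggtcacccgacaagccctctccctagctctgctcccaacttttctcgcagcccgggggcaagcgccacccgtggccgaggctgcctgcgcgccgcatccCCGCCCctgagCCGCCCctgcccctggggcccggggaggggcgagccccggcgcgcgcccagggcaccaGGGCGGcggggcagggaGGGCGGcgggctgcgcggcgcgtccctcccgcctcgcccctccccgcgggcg
Postn (chr3:54360857-54361156, plus strand): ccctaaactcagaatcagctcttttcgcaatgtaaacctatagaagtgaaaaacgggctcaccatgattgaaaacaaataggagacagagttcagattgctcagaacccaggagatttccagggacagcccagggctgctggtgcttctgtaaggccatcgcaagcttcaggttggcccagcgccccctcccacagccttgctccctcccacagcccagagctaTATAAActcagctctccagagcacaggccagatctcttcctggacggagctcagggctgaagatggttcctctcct
Tnc (chr4:64046966-64047265, minus strand): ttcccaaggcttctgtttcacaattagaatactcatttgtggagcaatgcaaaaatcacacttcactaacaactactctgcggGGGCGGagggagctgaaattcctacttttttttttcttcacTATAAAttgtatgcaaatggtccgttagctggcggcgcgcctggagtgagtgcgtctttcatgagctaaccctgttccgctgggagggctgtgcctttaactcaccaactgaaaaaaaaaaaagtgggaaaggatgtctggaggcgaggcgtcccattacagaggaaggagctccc
Npnt, Postn and Tnc each have 2 windows in the RefSeq table, and the one nearer to the GENCODE start of the chosen entry is shown. Inmt held 2 matches to TATAAA, at −80 and −69 from the RefSeq start site. The GENCODE transcript of Inmt begins 53 bases further upstream, and from there the matches lie at −27 and −16. Postn held 1 match to TATAAA at −26, and Tnc held 1 at −126 with 1 match to GGGCGG. The Npnt window shown held no TATAAA and 4 matches to GGGCGG. Its RefSeq start site is at 132950291 and the GENCODE start at 132950160, further downstream, and for Postn the RefSeq start is at 54361107 and the GENCODE start at 54361125. In the windows not shown, that of Npnt held none of the motifs, that of Postn held CCAAT and no TATAAA, and that of Tnc, which overlaps the one shown, held the same motifs. Of all 32851 RefSeq promoter windows of this length, 13.6% held TATAAA and 35.7% held GGGCGG. Of the other motifs, CCAAT was in 37.4% of all windows, TGANTCA in 7.81%, GGAATG in 14.7% and CAGCTG in 16.3%, and among the 4 windows shown only CAGCTG was found, once, in Inmt. The windows for Tcf21 and Pdgfra held none of the 6 motifs. A match is a description of the letters and not a binding site.

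The PDGF receptors did not pass the test. Pdgfra, on chromosome 5 from 75152306 to 75198215 with 23 exons, had 352, 494 and 508 CPM in WT libraries 1, 2 and 3 and 460, 454 and 475 CPM in the KO libraries. The 3 KO libraries lay close together, inside the WT range, and WT library 1 was the low one. Mean levels were 451 ± 86.7 CPM over the WT pools and 463 ± 11.1 CPM over the KO pools (SD, n = 3), with a log2 fold change of 0.04 (standard error 0.14, interval −0.27 to 0.35). Pdgfrb, on chromosome 18 from 61045150 to 61085061, had 170, 236 and 186 CPM in WT and 160, 179 and 275 CPM in KO. Here KO library 3 and WT library 2 were the high ones, each in its own genotype. Its log2 fold change was 0.05 (standard error 0.19, interval −0.37 to 0.47). Within a library there were 1.73 to 2.88 Pdgfra counts per Pdgfrb count, lowest in KO library 3 and highest in KO library 1.

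Of the ligands of these receptors, 4 of 4 were tested and 0 passed in either direction. Pdgfb, the ligand of both receptors, averaged 165 ± 19.8 CPM over the WT pools and 161 ± 49.7 CPM over the KO pools (SD, n = 3), at −0.04 on the log2 scale (standard error 0.18). Like Pdgfrb it was highest in KO library 3, at 217 CPM, and lowest in KO library 1, at 122 CPM. Pdgfa, the ligand of PDGFRα, was at 0.10 (standard error 0.13) and Pdgfd at 0.27 (standard error 0.17) on the log2 scale.

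Tcf21 was the steadiest of the 10 genes. It lies on chromosome 10 from 22817281 to 22820174 and has 2 exons. Its levels were 97.8, 97.3 and 89.2 CPM in WT and 105, 103 and 97.1 CPM in KO. KO library 3 lay below WT libraries 1 and 2, so the groups overlapped. The log2 fold change was 0.11 (standard error 0.10, interval −0.10 to 0.32). Its within-genotype SD was 0.07 on the log2 scale, and 5.91% of the genes tested had a smaller one.

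Inmt, on chromosome 6 from 55170626 to 55175043, had 1786, 1762 and 1964 CPM in WT and 2451, 2035 and 1821 CPM in KO. KO library 1 was the high one, and KO library 3 lay below WT library 3. The means were 1837 ± 110.1 CPM and 2102 ± 320.2 CPM (SD, n = 3), and the log2 fold change was 0.19 (standard error 0.15, interval −0.13 to 0.52).

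**Figure D2:**
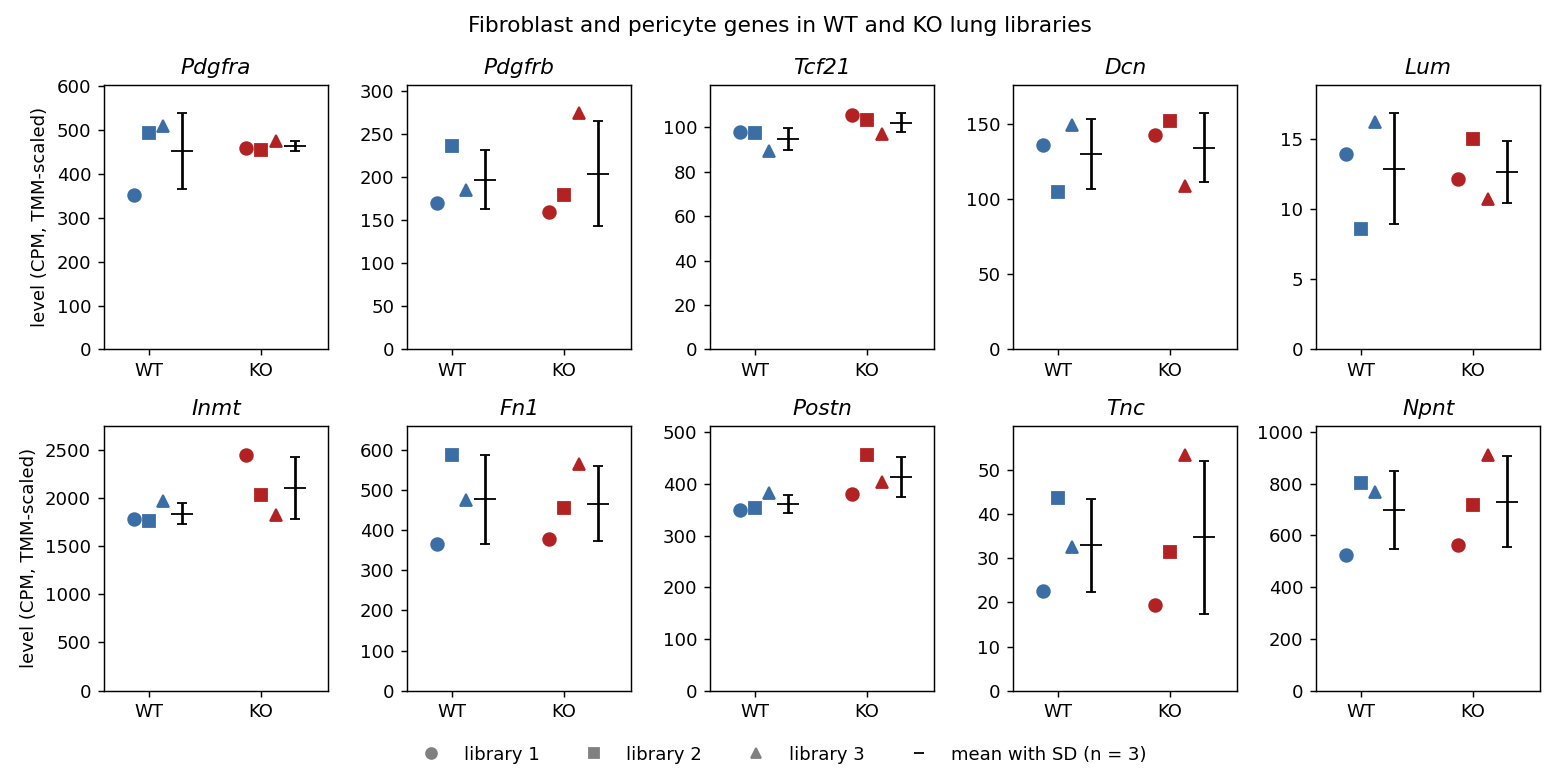
Levels of the 10 genes in CPM after TMM scaling, with 1 symbol per library (circle, square and triangle for libraries 1, 2 and 3; blue WT, red KO) and the mean with SD of 3 libraries beside them. WT and KO libraries overlap in all 10 panels, and in the panels of Fn1, Tnc and Npnt library 1 of each genotype is the lowest.

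The proteoglycans Dcn and Lum followed each other from library to library. They are neighbours on the plus strand of chromosome 10, with Dcn from 97479609 to 97518143, Lum from 97565128 to 97572703, and 46984 bases between them. Dcn had 136, 105 and 149 CPM in WT and 142, 152 and 109 CPM in KO, and WT library 2 and KO library 3 were low. Its log2 fold change was 0.05 (standard error 0.15, interval −0.29 to 0.39). Lum had 13.9, 8.57 and 16.3 CPM in WT and 12.2, 15.1 and 10.7 CPM in KO, from 99 to 182 counts per library, and the same libraries were the low ones. Its log2 fold change was −0.01 (standard error 0.23, interval −0.51 to 0.48). There were 9.19 to 12.2 Dcn counts per Lum count in the 6 libraries, a 1.33-fold range, while Lum itself ranged 1.90-fold.
Of 9 further small leucine-rich proteoglycans, 8 were tested and 0 passed, with 6 higher and 2 lower in KO and a median log2 fold change of 0.08. The highest in CPM, not scaled by length, were Bgn (biglycan), with a mean of 591 ± 103 CPM over the WT pools and 614 ± 87.6 CPM over the KO pools, Prelp, at 414 ± 99.8 and 431 ± 40.0 CPM, and Ogn (osteoglycin), at 234 ± 17.3 and 264 ± 61.8 CPM (SD, n = 3 pools). Omd (osteomodulin), with the smallest p of the list, averaged 2.12 ± 0.669 CPM over the WT pools and 2.90 ± 0.522 CPM over the KO pools, at 0.47 on the log2 scale (standard error 0.30, unadjusted p = 0.143 from edgeR). Bgn had its highest levels in WT library 2 and KO library 3, at 710 and 715 CPM, the libraries in which Dcn and Lum were lowest. Prelp was also highest there, at 529 and 475 CPM. Ogn went the other way and was the lowest of each genotype there, at 222 and 208 CPM.

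Fn1, on the minus strand of chromosome 1 from 71585524 to 71653175 with 46 exons, encodes fibronectin. Its levels were 365, 588 and 475 CPM in WT and 378, 454 and 564 CPM in KO. Both genotypes spanned nearly the same range, with WT library 2 and KO library 3 high and library 1 of each genotype low. The log2 fold change was −0.03 (standard error 0.18, interval −0.44 to 0.37).
Npnt, which encodes nephronectin, the ligand of the integrin with the subunit encoded by Itga8, lies on chromosome 3 from 132882683 to 132950160. It had 525, 804 and 767 CPM in WT and 562, 717 and 913 CPM in KO. Library 1 of each genotype was again low, and KO library 3 was the high one. The log2 fold change was 0.06 (standard error 0.20, interval −0.37 to 0.50).
Tnc, which encodes tenascin-C, a glycoprotein of developing and injured tissue, lies on chromosome 4 from 63959785 to 64047015. It had 22.6, 43.6 and 32.5 CPM in WT and 19.3, 31.5 and 53.5 CPM in KO, from 209 to 544 counts per library. The highest library, KO library 3, was 2.77 times the lowest, KO library 1, the widest range of the 10 genes. Its log2 fold change was 0.07 (standard error 0.31, interval −0.61 to 0.76), and without KO library 3 it was −0.37 and without KO library 1 0.36, both short of the threshold.
Postn, which encodes periostin, lies on chromosome 3 from 54361125 to 54391034. It had 351, 353 and 382 CPM in WT and 381, 457 and 403 CPM in KO. KO library 2 was the high one, and KO library 1 lay just under WT library 3, so the groups overlapped. The means were 362 ± 17.5 CPM and 414 ± 39.2 CPM (SD, n = 3), and the log2 fold change was 0.19 (standard error 0.11, interval −0.05 to 0.44). Its unadjusted p of 0.11 was the smallest of the 10 genes (edgeR).

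**Figure D3:**
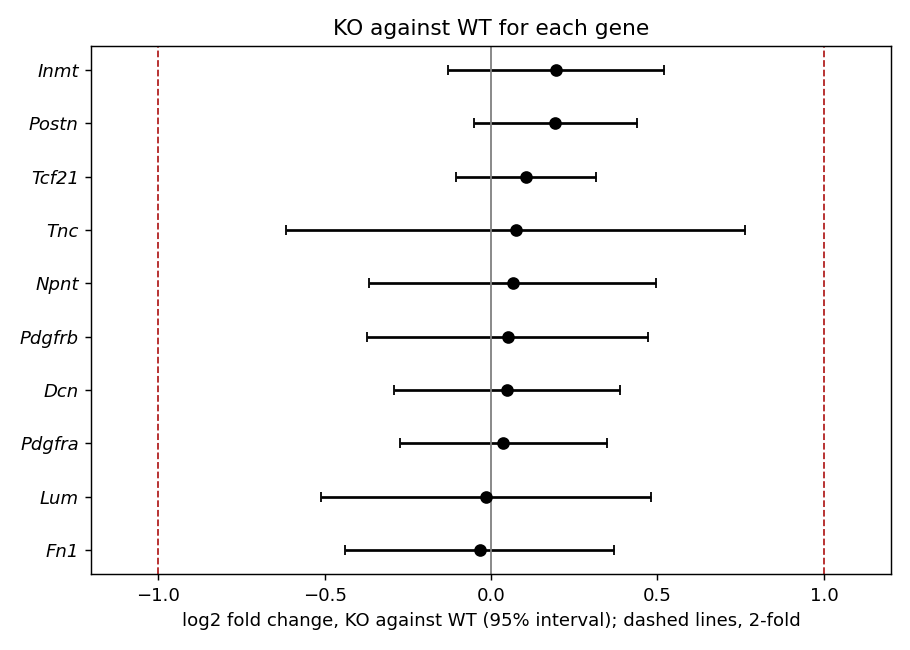
Log2 fold changes of KO against WT from edgeR with 95% intervals, 1 line per gene; dashed lines mark a 2-fold change. All 10 intervals include 0 and lie between the dashed lines, and the interval of Tnc, from −0.61 to 0.76, is the widest.

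The interval left out a 2-fold change, up or down, for 10 of the 10 genes, as it did for 93.1% of all genes tested. For 9 of 10 it left out a 1.5-fold change, against 75.5% of all genes, the exception being Tnc. The direction of the fold change turned when 1 library was left out for 7 genes, and 1 gene, Lum, turned with each library but WT library 2 and KO library 2. Without WT library 1 it turned for Pdgfra, Pdgfrb, Tnc and Npnt, and without KO library 3 for Pdgfrb, Tnc and Npnt. Without WT library 2 it turned for Dcn and Fn1, without KO library 1 for Fn1 and without KO library 2 for Dcn. Tcf21, Inmt and Postn stayed above 0 under each such omission.

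The deposited table lists 7 RefSeq entries of Fn1 that differ in alternatively spliced coding segments and held 28313 to 30203 counts each. The handling of shared reads is not given, and such counts are what crediting each read to every entry it fits would give. On that reading, the difference between a longer and a shorter entry shows how many counts the segment alone received. EDB and EDA are extra fibronectin type III repeats known from developing and injured tissue, and the V segment carries, in its first part, a binding stretch for the integrin with the subunit encoded by Itga4. The EDB exon, 273 bases at chr1:71613763-71614035, received 1 count in each WT library and 3, 0 and 3 counts in KO libraries 1, 2 and 3, making 9 in all out of 30203 Fn1 counts. The 0 in KO library 2 allows up to 0.547 per 1000 Fn1 counts (3 counts, counting error only). The EDA exon, 270 bases at chr1:71603660-71603929, received 37, 41 and 26 counts in WT and 29, 33 and 33 counts in KO, so every library gave it far more counts than EDB at nearly the same length.
The V segment, 360 bases at chr1:71597388-71597747, received 209 to 382 counts per library, or 54.9 ± 2.80 per 1000 Fn1 counts in WT and 55.8 ± 4.84 in KO (SD, n = 3 pools). The first 75 bases of it, at chr1:71597673-71597747, received 25 to 58 counts. Counts per base over all libraries were 0.033 for EDB, 0.737 for EDA and 4.67 for V, against 3.63 for the longest entry as a whole. EDA received 7.20 ± 1.71 per 1000 Fn1 counts in WT and 6.29 ± 0.710 in KO. Exact permutation tests of the genotypes (two-sided) gave p = 0.4 to 0.8 for the 4 segments, where 3 pools against 3 allow no less than 0.1 and so cannot reach 0.05. How reads across exon junctions were credited is not given in the sources used here, so these values are not shares of transcripts that include a segment, and a few untranslated bases that also differ between entries are counted with them.

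**Figure D4:**
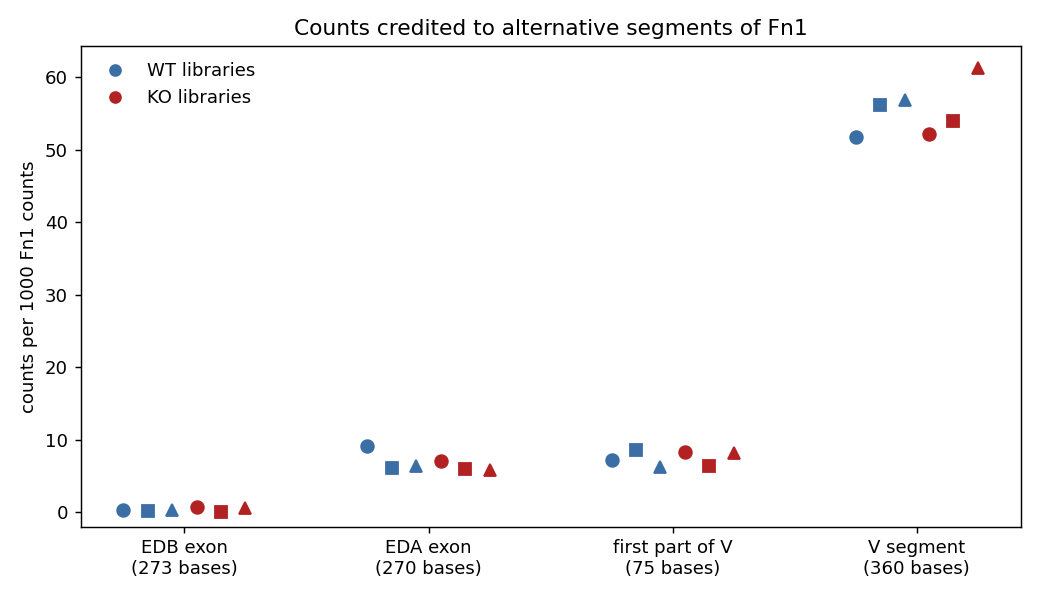
Counts that a longer Fn1 entry received and a shorter one did not, per 1000 Fn1 counts, for 4 alternatively spliced segments, with 1 point per library (circle, square and triangle for libraries 1, 2 and 3; blue WT, red KO). EDB lies at 0 to 0.734, EDA at 5.76 to 9.16 and the V segment at 51.7 to 61.3, with WT and KO mixed in each.

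The other genes with several entries had nearly the same count in each. Entries of a gene share most of their bases, so near-equal counts do not show equal use of the entries. For Postn the 3 entries had 24953 to 24972 counts in all, although the entries differ by coding exons of 84 and 81 bases. The entries of Pdgfra differ in their first, untranslated exon, of 152 bases in the chosen entry and 451 in the other. The chosen entry also has 14 more bases at its end. Net over these stretches, the chosen entry had 698 counts more than the other, out of 29223, with 65 to 163 more in each library. The 2 entries of Dcn use separate first exons of 181 bases and had 8471 and 8399 counts, a difference of −5 to 25 per library. The 2 entries of Pdgfrb had identical counts. The 2 entries of Npnt, of 3601 and 4619 bases, had 45668 and 45597 counts.

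Of the spread between libraries, the within-genotype SD of log2 CPM was 0.62 for Tnc, and 98.1% of the genes tested had a smaller one. It was 0.38 for Lum, 0.34 for Npnt, 0.34 for Pdgfrb and 0.32 for Fn1, which 85.0% to 90.6% of genes were under. The median over the 10 genes was 0.29, against 0.17 over all genes tested. For Tnc, Npnt, Fn1 and Pdgfrb, WT library 2 and KO library 3 were above the mean of the 6 libraries and library 1 of each genotype below it. For Dcn and Lum, WT library 2 and KO library 3 were below the mean. There were therefore 5.63 and 5.19 Fn1 counts per Dcn count in these libraries and 2.65 to 3.18 in the other 4. By contrast there were 1.37 to 1.62 Npnt counts per Fn1 count, a 1.18-fold range.

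**Figure D5:**
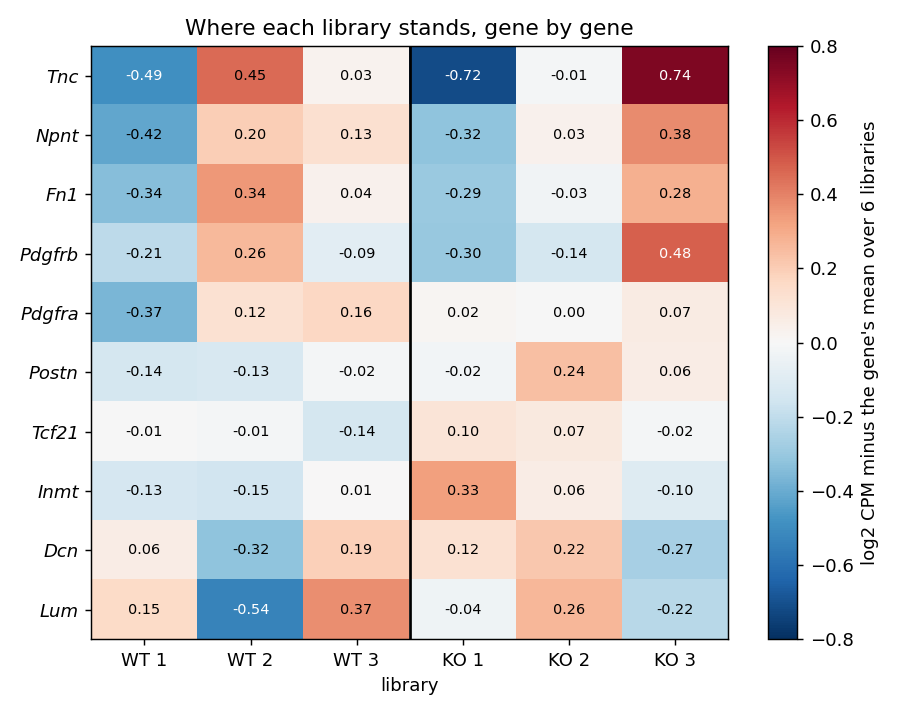
Log2 CPM of each gene in each library minus the gene's mean over the 6 libraries (red above, blue below; numbers are the differences). Tnc runs from −0.72 in KO library 1 to 0.74 in KO library 3, while Dcn and Lum are lowest in WT library 2 and KO library 3.

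The genes whose log2 CPM over the 6 libraries were most like each of these are given as a description. For Tnc they were Mmp14 and Mmp2, metalloproteinases that cleave matrix and of which the first activates the second, and Pcdhgc3, a protocadherin (Pearson r 0.99 or more over 6 libraries). For Npnt they were Col4a1, a basement membrane collagen, Kirrel and Coro1c (r 0.99). For Fn1 they were Ptprg, Plekhg1 and Naif1, and for Pdgfrb Fzd1, a Wnt receptor, Tead1, a Hippo pathway factor, and Trip10 (r 0.99 or more). For Pdgfra they were Sec24d, Fam134c and Clcn5, for Tcf21 Rab13, Arhgef28 and Spire2, for Dcn Atad1, Zfp317 and Snw1, for Lum Gpr141, Tctex1d2 and 4921524J17Rik, for Inmt Hebp1, Ak3 and Stmn2, and for Postn Steap2, Cby1 and Sqle (r 0.97 or more). These genes were picked out of 14802 by this rank, over 6 libraries that share depth and scaling, so the values are a description only.

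Some other measures moved between the same libraries. The summed level of 6 neutrophil markers, led by S100a9, was lowest in WT library 2 and KO library 3, at 160 and 129 CPM against 169 to 500.3 CPM elsewhere. Of the endothelial markers, 6 of 6 were tested and 0 passed, and their summed level was highest in WT library 2 and KO library 3, at 4207 and 4195 CPM against 3628 to 4114 CPM elsewhere. The value of 4114 CPM was that of KO library 1, which was low for Tnc, Npnt, Fn1 and Pdgfrb. The sum of 5 airway markers was lowest there, at 21092 and 21637 CPM against 23797 to 32589 CPM. The sum of 7 cartilage markers was 42.8 CPM in KO library 3 and 23.6 to 33.3 CPM elsewhere, nearly all from Chad, with Matn1 at 0 in every library. Other marker sums did not single out WT library 2 and KO library 3. That of alveolar type 2 markers was lowest in WT library 1, at 27399 CPM, and highest in KO library 2, at 34953 CPM. Those of alveolar type 1, mesothelium and macrophage markers were also highest in KO library 2, and that of T and B cell markers in WT library 1. Transcript length and base composition differed between libraries too. Genes of 5000 bases or more, which include Pdgfra, Pdgfrb, Fn1 and Tnc, had medians of 0.06 and 0.03 in WT library 2 and KO library 3 and of −0.05 and −0.05 in WT library 1 and KO library 1, as log2 CPM minus the gene's mean. Genes with a GC content under 45%, which include Dcn, Lum and Postn, had medians of −0.12 and −0.13 in WT library 2 and KO library 3, and those over 52%, which include Fn1, Pdgfrb, Tnc and Inmt, medians of 0.10 and 0.09. These shifts were smaller than those of Tnc, Fn1, Pdgfrb, Dcn and Lum in WT library 2 and KO library 3. Those genes moved in the direction of their GC range. Inmt, at −0.15 and −0.10, moved against its range, and Postn, at −0.13 and 0.06, did so in KO library 3 only. Npnt was at 0.20 and 0.38, where genes of its length range had medians of 0.015 and 0.011. Genes of its GC range, 45% to 52%, had medians of −0.024 and −0.026. The part of length and GC content in the pattern was not tested.

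Companion genes of the same cells and matrix, 90 tested genes on 8 lists, held 0 that passed in either direction, with 59 higher and 31 lower in KO and a median log2 fold change of 0.06. Of these 90, KO libraries lay above WT libraries for 1 and below for 2, where 2.28% and 3.18% of all genes did so. In edgeR's quasi-likelihood test the 1 gene with an unadjusted p under 0.05 was Itga4, an integrin subunit that is also abundant on leukocytes (unadjusted p = 0.0348, adjusted p = 0.9999). Its log2 fold change was −0.28 (standard error 0.12), with 103, 79.3 and 91.0 CPM in WT and 80.7, 73.7 and 70.7 CPM in KO. KO library 1 lay above WT library 2, so the groups overlapped.
Of 10 integrin subunits, 6 were higher and 4 lower in KO. Itgb1, the shared beta subunit, averaged 932 ± 135 CPM over the WT pools and 971 ± 69.0 CPM over the KO pools, and Itga8, the partner of nephronectin, 219 ± 15.6 and 232 ± 12.3 CPM (SD, n = 3 pools). Itgb5 was at 0.16 (standard error 0.10) on the log2 scale.
Of 18 further alveolar fibroblast and lipofibroblast genes, 9 were higher and 9 lower, with a median of −0.01. Limch1 averaged 920 ± 120.1 CPM over the WT pools and 905 ± 65.5 CPM over the KO pools (SD, n = 3), Mfap4, a microfibril protein, 499 ± 81.5 and 553 ± 177 CPM, and Ces1d, a carboxylesterase, 420 ± 34.7 and 461 ± 51.4 CPM. Slc7a10, an amino acid transporter, had the smallest p of the list, at −0.26 (standard error 0.15).
Of 12 adventitial fibroblast genes, 11 were higher and 1 lower in KO, with a median of 0.11, where 50.8% of all genes were higher. Gsn (gelsolin), Ly6a and Igfbp4 were at 0.08, 0.08 and 0.11, and Mfap5 at 0.27 (standard error 0.14). KO libraries lay above WT libraries for 1 gene, Pcolce2, an enhancer of procollagen processing named for that overlap after its values were seen, at 210, 230 and 218 CPM in WT and 239, 261 and 252 CPM in KO. Over all genes 2.28% did so.
Of 14 pericyte genes, 8 were higher and 6 lower, with a median of 0.04. Mcam averaged 320 ± 58.3 CPM over the WT pools and 333 ± 56.7 CPM over the KO pools (SD, n = 3), and the guanylate cyclase subunits Gucy1a3 and Gucy1b3 were at −0.03 and 0.08 on the log2 scale. KO libraries lay below WT libraries for 2 genes, Abcc9 and Kcnj8, which encode the subunits of a potassium channel of pericytes, where 3.18% of all genes did so. Abcc9 had 17.5, 17.8 and 16.8 CPM in WT and 15.3, 14.2 and 15.1 CPM in KO, at −0.23 on the log2 scale (standard error 0.13, unadjusted p = 0.0917 from edgeR). Kcnj8, named after its values were seen, had 11.1, 11.6 and 11.0 CPM in WT and 11.0, 10.3 and 9.35 CPM in KO, at −0.14 on the log2 scale (standard error 0.15), with the nearest WT and KO libraries alike to 3 digits.
Of 12 myofibroblast and smooth muscle genes, 9 were higher and 3 lower, with a median of 0.10. Mylk, the myosin light chain kinase, was at −0.05, Tagln at 0.18, Acta2, smooth muscle actin, at 0.06 and Synpo2 at 0.30 (standard error 0.14).
Of 13 other matrix glycoproteins, 9 were higher and 4 lower, with a median of 0.04. Sparc, a collagen-binding glycoprotein, had 1194, 2064 and 1966 CPM in WT and 1384, 1892 and 2789 CPM in KO, so that library 1 of each genotype was low and KO library 3 high, as for Npnt. Its log2 fold change was 0.22 (standard error 0.26). Sparcl1 and Ltbp4 were at 0.14 and 0.02, and Tgfbi at −0.14 (standard error 0.10).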

How the data were processed

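Per the labels and the study's methods, the authors isolated lung RNA of 9 WT and 9 KO mice, combined 3 per library, sequenced them on an Illumina HiSeq (50 bp, paired-end) and aligned with TopHat to mm10. The deposited values are raw counts per entry, not normalized, for 31176 RefSeq transcripts and 33353 FANTOM3 clones. For the counter, the annotation release, the use of strand and the handling of shared reads, no entry is given in the sources used here. Of 49 gene names turned into dates, 48 were restored by accession.
Each gene was represented by its RefSeq entry with the highest total. edgeR 4.0.16 in R 4.3.3 was used, with filterByExpr (minimum count 10, minimum total 15), TMM scaling and the quasi-likelihood test of KO against WT over 14802 genes, a threshold of 0.05 after Benjamini-Hochberg adjustment, and a biological coefficient of variation of 0.129. The steps were tested on simulated data. A standard error is the size of the log2 coefficient before shrinkage, divided by the root of its F statistic. Intervals are centred on that coefficient, while the log2 fold changes printed are edgeR's, shrunken by a prior count. Within-genotype SDs used log2 CPM with a prior count of 2. Lengths and exons came from GENCODE M21 (22820 of 23473 genes matched by accession, 98.2% of those tested) and promoters from RefSeq (GRCm38.p6), where 6 of the 10 genes had a window.
The genes and lists were chosen with earlier results of these data known. Beside the 10 genes and Tspo, the rule named for each list the 3 genes highest in mean CPM, not scaled by length, and the one with the smallest p, and for each gene the 3 with the most alike pattern. Alternatives were RLE and no composition scaling, DESeq2 1.42.0, edgeR's exact test, limma-voom (limma 3.58.1), other filters, each library left out, a replicate block, summed entries, every entry by itself, the most abundant genes removed, and 0.1 as the threshold. Offsets for transcript length and for GC content, in 20 bins, and leaving out WT library 2 with KO library 3 were added after seeing the data. Between libraries of a genotype, chi-square over its degrees of freedom was 7.59 to 116, where sampling noise alone gives about 1, so none was a copy. Each pool held littermates, but whether pools of a genotype came from separate litters, or WT and KO pools from shared ones, is not given in the labels or methods, so p-values measure the spread between these pools.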

Additional observations from a re-analysis of the deposited data

How the results depend on the processing

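None of the 10 genes passed the threshold under any of the 21 alternatives run, with the smallest unadjusted p at 0.0739 for Postn under offsets for transcript length. The count over all genes was 1 to 2 when 1 library was left out, 2 without WT library 1, and 1 under the other alternatives. The log2 fold change of Tspo stayed between −2.93 and −2.83. Small fold changes turned sign. For Lum the value became 0.031 without composition scaling, 0.042 with limma-voom and 0.0016 with every entry by itself. For Fn1 it became 0.0085 without composition scaling and 0.0075 with offsets for transcript length, and for Tnc −8e-04 with limma-voom. Without both WT library 2 and KO library 3 it became −0.071 for Pdgfrb, −0.10 for Tnc and −0.014 for Npnt. With 1 library left out at a time the ranges were −0.11 to 0.14 for Pdgfra, −0.22 to 0.20 for Pdgfrb, −0.087 to 0.18 for Dcn, −0.24 to 0.18 for Lum, −0.19 to 0.15 for Fn1, −0.37 to 0.36 for Tnc and −0.13 to 0.22 for Npnt. They were 0.07 to 0.14 for Tcf21, 0.07 to 0.29 for Inmt and 0.12 to 0.25 for Postn. The cause of these changes was not tested, and the fits with libraries left out also had fewer samples.
With a block by replicate number, Lum was at 0.0072 and 0 of the 10 genes and 1 gene in all passed. Against the main fit, the block lowered the standard error for Tnc (0.314 to 0.205), Npnt (0.196 to 0.141), Fn1 (0.184 to 0.147) and Pdgfrb (0.192 to 0.172). It was higher with the block for the others of the 10 genes. Offsets for GC content lowered the standard error for Dcn (0.1548 to 0.1105), Lum (0.2251 to 0.1842) and Tnc (0.3138 to 0.3039), and raised it for Inmt alone. Offsets for transcript length lowered it for Fn1 (0.1839 to 0.1572) and Tnc (0.3138 to 0.2951), and raised it for Lum alone. Deviations of same-numbered libraries from their genotype means correlated at 0.13, −0.23 and −0.27 over the genes tested. The highest of the 9 correlations between a WT and a KO library, 0.39, was that of WT library 2 with KO library 3. With 3 libraries per genotype, these values cannot decide whether the numbers pair the libraries. Counts were lowest for Lum and Tnc, at 99 to 182 and 209 to 544 per library, and the part of depth in their spread was not tested.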
